A study of Mus musculus with 288 samples.

Results

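Trpa1, Necab2, Sphkap, Anpep, Naaladl1, Bace2, Prune2, Neto1, Rasal1 and Ldb3 are 10 of the 46078 mouse genes counted in single cells of the upper small intestine of GLU-Venus mice, and none of them encodes a hormone. They were chosen by their measured values in these same cells, because they appeared to follow Gcg, Pyy or Gpr119 from cell to cell or to be low in cells with Pzp. Their relation to these 4 genes, and every contrast of cells that differ in them, is therefore given as a description without p-values for the 10 genes. GLU-Venus mice carry the fluorescent protein Venus under the proglucagon promoter, so that preproglucagon cells (PPG-cells) can be sorted. Tissue came from male mice on a C57BL6 background aged 20 to 21 weeks, without any treatment, and single sorted cells were sequenced by Smart-seq2, a full-length protocol that adds no molecular identifiers and keeps no strand. The labels give 3 pools of 96 cells, each taken here as 1 mouse, and call all cells L-cells without giving the fluorescence of a cell. By the study's methods the shallow pools SLX-11175 and SLX-11179 also hold non-fluorescent control cells and the deep pool SLX-9703 holds fluorescent cells, so that cells of other types can be told only by their genes.

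Gcg encodes preproglucagon, the precursor of GLP-1, and Pyy encodes peptide YY, another hormone of classical L-cells. Gpr119 encodes a receptor for lipid amides that raises cAMP and stimulates release of GLP-1, and Pzp encodes a protease inhibitor of the alpha-2-macroglobulin family. Of the 10 genes, Trpa1 encodes a cation channel opened by mustard oil and other irritants, and Necab2 a calcium-binding protein known from neurons. Sphkap encodes an anchoring protein for the type I regulatory subunits of protein kinase A, and Rasal1 a calcium-responsive GTPase-activating protein for Ras. Anpep (aminopeptidase N) and Naaladl1 encode metallopeptidases of the cell surface, and Bace2 an aspartyl protease related to the beta-secretase of the amyloid precursor protein. Prune2 encodes a large protein with a BCH domain, Neto1 an auxiliary subunit of ionotropic glutamate receptors, and Ldb3 a PDZ-LIM protein best known from the Z-disc of muscle.

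Cells with at least 20000 reads on mouse genes and at most 20% mitochondrial reads were used, which left 250 of 288 (75 in SLX-11175, 87 in SLX-11179, 88 in SLX-9703). The median depth was 52571, 70726 and 1975706 reads on genes, so that 1 read stands for 19, 14.1 and 0.506 CPM (reads per 1000000 reads on mouse genes) in a cell of median depth. Each cell was put in the first class that applied, namely Pzp-positive (Pzp of 100 CPM or more, 65 cells), Gcg-high (Gcg of 10000 CPM or more, 57 cells), Gip-high (25 cells), Cck-high (37 cells) or remaining (66 cells), with the same limit of 10000 CPM for the 3 hormones. Few cells lay near the limits: 1 cell lay less than 2-fold under the Pzp limit and 5 less than 2-fold over it, and for Gcg these were 11 and 5 cells. Of the 57 Gcg-high cells, 55 also had 10000 CPM or more of Cck and 4 that of Gip. All 10 genes of the enteroendocrine marker list were read in at least 10% of cells of each hormone or Pzp class in each pool, with a mean sum between 2132 CPM in Gip-high cells of 1 pool and 50113 CPM in Cck-high cells of another. In remaining cells the mean sum of that list lay between 1113 and 2440 CPM, and immune markers summed to up to 116479 CPM and enterocyte markers to up to 11346 CPM in the mean of a pool, against at most 355 and 3874 CPM in the other classes. The remaining cells are thus cells under these limits, with up to 6820 CPM of Gcg and 9169 CPM of Gip, and no single cell type.

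All 10 genes are annotated as protein-coding in GENCODE M21 on the genome build GRCm38 (mm10) used for the counts. RefSeq promoters of that build were at hand for 5 of them, Necab2, Sphkap, Anpep, Prune2 and Ldb3. Anpep and Prune2 are shown because their mean level was highest in Gcg-high cells. Sphkap is shown because it lay closest to Gpr119 in the mean of the 3 pools. Ldb3 is shown because its mean was higher in Pzp-positive than in Gcg-high cells. Each sequence is the 250 bases before the annotated start, 5′ to 3′ on the strand of the gene, in lower case with matches of the searched motifs in capitals. They lie at chr7:79848211-79848460 on the minus strand (Anpep), chr19:16955868-16956117 on the plus strand (Prune2), chr1:83408201-83408450 on the minus strand (Sphkap) and chr14:34588682-34588931 on the minus strand (the first of 2 annotated Ldb3 starts). The Anpep start is that of a transcript that begins inside the annotated span of the gene.
Anpep: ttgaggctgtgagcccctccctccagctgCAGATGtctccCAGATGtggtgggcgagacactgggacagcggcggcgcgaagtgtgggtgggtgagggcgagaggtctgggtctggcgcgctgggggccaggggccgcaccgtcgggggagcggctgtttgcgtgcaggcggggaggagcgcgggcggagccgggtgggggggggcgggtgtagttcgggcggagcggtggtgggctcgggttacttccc
Prune2: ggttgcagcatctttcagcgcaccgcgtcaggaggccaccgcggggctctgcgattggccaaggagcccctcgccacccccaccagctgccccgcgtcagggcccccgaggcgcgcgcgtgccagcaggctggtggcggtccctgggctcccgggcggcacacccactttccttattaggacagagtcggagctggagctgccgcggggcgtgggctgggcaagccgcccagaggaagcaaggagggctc
Sphkap: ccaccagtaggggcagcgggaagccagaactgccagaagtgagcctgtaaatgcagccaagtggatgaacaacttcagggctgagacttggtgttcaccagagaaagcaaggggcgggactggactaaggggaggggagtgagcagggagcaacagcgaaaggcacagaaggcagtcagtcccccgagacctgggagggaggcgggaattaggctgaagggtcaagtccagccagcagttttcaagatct
Ldb3: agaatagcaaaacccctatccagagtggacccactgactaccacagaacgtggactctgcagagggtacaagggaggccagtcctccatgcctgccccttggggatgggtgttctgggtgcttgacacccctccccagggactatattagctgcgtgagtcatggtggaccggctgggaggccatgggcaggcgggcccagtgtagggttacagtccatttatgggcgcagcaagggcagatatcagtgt
The motifs searched on both strands were CAGATG, an E-box of the kind bound by NeuroD1, TAATTA, a core of homeodomain factors, TGTTTAC, a forkhead motif, GTTGCC, a part of the X-box of RFX factors, and TGACGTCA, the cAMP response element. CAGATG stood at 2 places in the Anpep promoter, 221 and 210 bases before the start, and 16.3% of the 27025 genes with a promoter in the table hold it in a window of this length. GTTGCC stood once in the Necab2 promoter, on the opposite strand 129 bases before the start, and 11.8% of genes hold it. None of the 5 motifs was found in the printed windows of Prune2, Sphkap and Ldb3, while TAATTA is held by 5.65%, TGTTTAC by 3.54% and TGACGTCA by 1.77% of genes. The share of G and C was 72.8% in Anpep, 72% in Prune2, 57.6% in Sphkap and 58.4% in Ldb3, against a median of 52.4% over all promoters. These letter matches describe the windows alone.

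The first question was where the 10 genes were highest. Anpep, Necab2 and Prune2 had their highest mean in Gcg-high cells. Trpa1, Naaladl1, Bace2, Neto1 and Ldb3 had it in Cck-high cells, whose Gcg was below 10000 CPM, and Sphkap and Rasal1 had it in Gip-high cells. The label of genes that follow Gcg therefore holds for the order of classes only in part, and the genes are named here by themselves. Between Gcg-high and Pzp-positive cells, a contrast that was used to choose the genes, the mean was higher in Gcg-high cells in all 3 pools for 9 of 10, against 10.7% of the 10926 genes tested below, and nothing is read from this count. Ldb3 was the exception, with a lower mean in Gcg-high than in Pzp-positive cells in all 3 pools. A few Pzp-positive cells hold much of that mean, as given below.

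**Figure D1:**
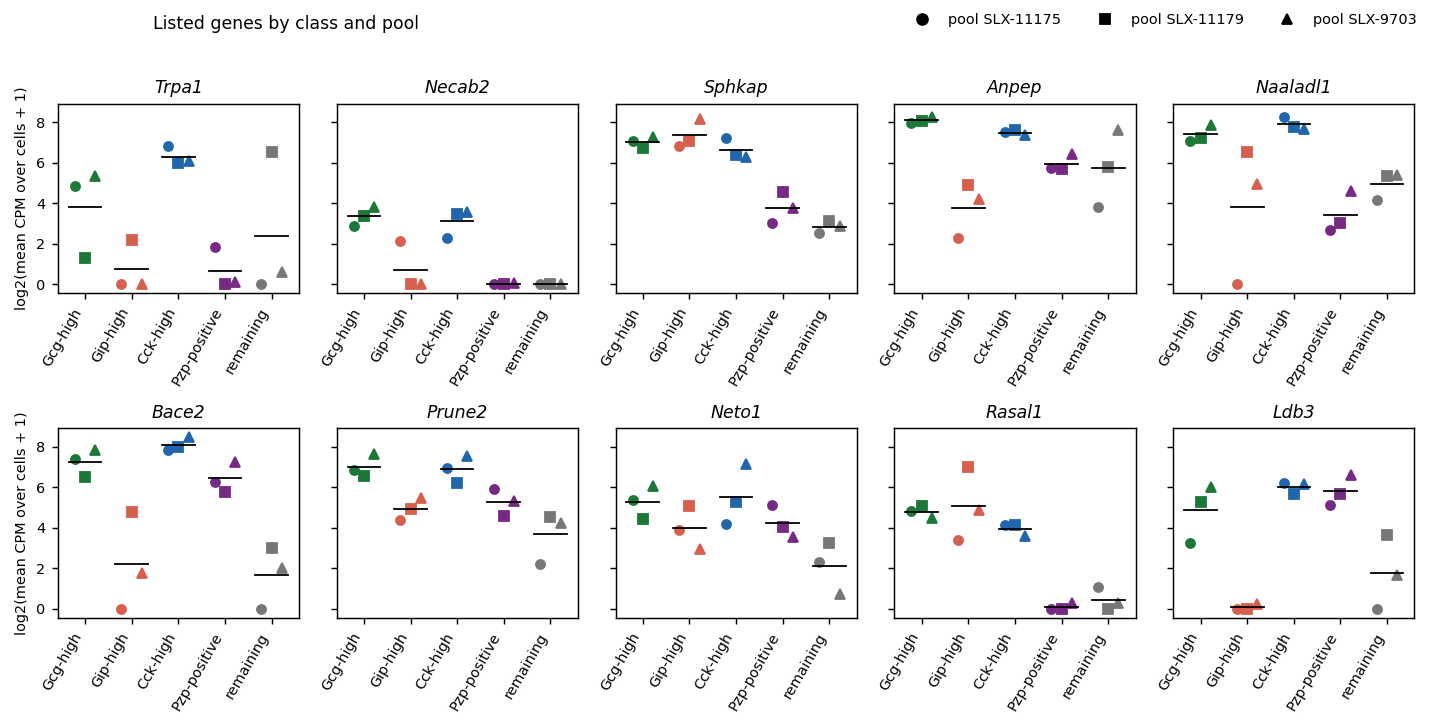
Mean level of each listed gene by class, as log2(mean CPM over cells + 1) on the vertical axis, with 1 point per pool (circle, square and triangle for the 3 pools) and a line at the mean of the 3 points. Anpep is highest in Gcg-high cells in each pool, Bace2 and Trpa1 in Cck-high cells except for the Trpa1 value of remaining cells in pool SLX-11179, and Ldb3 lies near 0 in Gip-high cells.

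Levels below are means of CPM over the cells of a class, given in the order SLX-11175, SLX-11179, SLX-9703 throughout. They are on a per-read scale that is not divided by gene length, so that they compare classes and not genes. Anpep (chr7:79821803-79861059, minus strand) had 251, 266 and 306 CPM in Gcg-high cells (mean 274 ± 28.5, SD, n = 3 pools) and 184, 192 and 161 CPM in Cck-high cells, and the pools of the 2 classes did not overlap. In Pzp-positive cells it had 52.4, 51.2 and 84.4 CPM, and in Gip-high cells 3.79, 29.1 and 17.3 CPM. The remaining cells ranged most widely, with 13, 54.9 and 191 CPM. The 3 remaining cells with most Anpep, at 1173, 884 and 760 CPM, carried 113762, 34773 and 12223 CPM of the enterocyte marker list. Among Gcg-high cells of SLX-9703 the highest sum of that list was 29505 CPM, against a median of 1967 CPM. The part of enterocyte RNA in the other Anpep values was not tested. Across cells, Anpep followed the sum of that list with a Spearman's rho of 0.61, 0.51 and 0.46. Other listed genes did so too, with 0.49, 0.56 and 0.40 for Bace2, 0.38, 0.35 and 0.40 for Ldb3 and 0.41, 0.43 and 0.24 for Naaladl1, while the rho of the remaining 6 genes lay between -0.15 and 0.35.

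Naaladl1 (chr19:6105782-6115792, plus strand) had 302, 214 and 201 CPM in Cck-high cells (mean 239 ± 54.8, SD, n = 3) and 135, 148 and 232 CPM in Gcg-high cells. The order of these classes was not the same in every pool, with Gcg-high cells above Cck-high cells in 1 of 3. In Pzp-positive cells Naaladl1 was low in every pool, at 5.48, 6.99 and 23.4 CPM, below all Gcg-high values. Naaladl1 was most like the granin genes Chgb (rho 0.62 over the 88 cells of the deep pool) and Chga (0.53), which encode proteins of the secretory granule.

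Bace2 (chr16:97356742-97442936, plus strand) had 232, 252 and 358 CPM in Cck-high cells, above its 167, 90.9 and 229 CPM in Gcg-high cells in every pool. It was also present in Pzp-positive cells, at 75.8, 54 and 154 CPM, overlapping the Gcg-high values. In Gip-high cells it had 0, 26.8 and 2.46 CPM and in remaining cells 0, 7.17 and 3.07 CPM, so that the classes with much Bace2 were those with much Cck. Of 12146 genes, that nearest to Bace2 over the deep pool was Cck itself, with a rho of 0.73 there and 0.68 and 0.62 in the shallow pools.

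Trpa1 (chr1:14872648-14918862, minus strand) was a gene of few cells. Its mean in Cck-high cells was 111, 62.8 and 66.7 CPM (mean 80.3 ± 27, SD, n = 3), from 4 of 9, 4 of 13 and 8 of 15 cells with a read. In Gcg-high cells it was 27.5, 1.41 and 40.1 CPM, lower than in Cck-high cells of the same pool each time. In the deep pool, 2 of the 20 Gcg-high cells held 66.2% of the Trpa1 reads of that class, and 2 of the 15 Cck-high cells held 65.8%. The 92.7 CPM of remaining cells in pool SLX-11179 came from 2 cells, 1 of them with 67 of 72 reads. Trpa1 was all but absent from Pzp-positive cells, at 2.61, 0 and 0.0882 CPM, and from Gip-high cells, at 0, 3.62 and 0 CPM. In the deep pool its level over all Cck-high cells was at least 312-fold that in Gip-high cells, a lower bound against a floor of 3 reads in the Gip-high sum of that pool.

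Necab2 (chr8:119446719-119472640, plus strand) had 6.35, 9.36 and 13.3 CPM in Gcg-high cells and 3.89, 10.1 and 11 CPM in Cck-high cells, with overlapping pools. No read fell on it in the 66 remaining cells, and 1 read in all 65 Pzp-positive cells. In the deep pool its level in Gcg-high cells was at least 69.8-fold that in remaining cells, against a floor of 3 reads. Trpa1 and Necab2 had a rho of 0.51 with each other in the deep pool, where 25 and 19 of 88 cells had a read of them and 13 had both, and of 0.083 and 0.11 in the shallow pools, where 1 cell of each had both. Chgb was among the 2 genes nearest to each of them in the deep pool, with a rho in that pool of 0.51 for Trpa1 and 0.52 for Necab2.

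Sphkap and Rasal1 were shared with Gip-high cells. Sphkap (chr1:83254139-83408200, minus strand) had 113, 133 and 283 CPM in Gip-high cells (mean 176 ± 93.4, SD, n = 3), 135, 105 and 151 CPM in Gcg-high cells and 146, 82.5 and 77.1 CPM in Cck-high cells, and these 3 classes overlapped. In Pzp-positive cells it had 7.11, 22.3 and 12.5 CPM and in remaining cells 4.84, 7.60 and 6.37 CPM, both far under the other 3 classes in each pool. Gpr119 (rho 0.60) and Abcc8 (0.58), a subunit of the ATP-sensitive potassium channel, were the 2 genes nearest to Sphkap in the deep pool, and in the shallow pools the rho with Gpr119 was 0.49 and 0.56.

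Rasal1 (chr5:120648812-120679597, plus strand) had 9.62, 129 and 28.3 CPM in Gip-high cells, 27.6, 33 and 21.4 CPM in Gcg-high cells and 16.6, 16.8 and 11 CPM in Cck-high cells. The Gip-high value thus varied over pools more than those of the other classes. All 106 Rasal1 reads of Gcg-high cells in pool SLX-11179 came from 1 cell, and in the deep pool 2 cells held 57.9% of those of Gcg-high cells. The first of these cells also had 22882 CPM of Gip and 1 of the other 2 had 11717 CPM, and they are 2 of 4 Gcg-high cells over the Gip limit, the other 2 having no Rasal1 read. Pzp-positive cells had 0, 0 and 0.242 CPM and remaining cells 1.11, 0 and 0.242 CPM. Of the genes in the deep pool, Sfrp5, a secreted antagonist of Wnt signalling, was nearest to Rasal1, with a rho of 0.46 there and of 0.093 and 0.22 in the shallow pools.

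Prune2 (chr19:16956118-17223932, plus strand) had 116, 92.6 and 197 CPM in Gcg-high cells and 124, 74.1 and 184 CPM in Cck-high cells, so that the pools differed more than these classes. Pzp-positive cells had 58.9, 22.7 and 39.7 CPM, Gip-high cells 20.1, 29.4 and 44.1 CPM and remaining cells 3.70, 22.6 and 18 CPM. Chgb (rho 0.66) and Gpr119 (0.65) were nearest to Prune2 in the deep pool.

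Neto1 (chr18:86394952-86506718, plus strand) had 17.2, 37.4 and 144 CPM in Cck-high cells and 41, 20.8 and 65.1 CPM in Gcg-high cells, with Cck-high cells above Gcg-high cells in 2 of 3 pools. Pzp-positive cells had 34.4, 15.7 and 10.6 CPM, which overlapped Gcg-high cells. Exons of Neto1 overlap those of the antisense gene AC113599.1, which is not a row of the counts, and reads of the 2 strands cannot be told apart. Of the other 9 genes, none shares exons with another annotated gene.

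Ldb3 (chr14:34526603-34588682, minus strand) had 74, 50.9 and 70.6 CPM in Cck-high cells, 33.8, 50.8 and 96.3 CPM in Pzp-positive cells and 8.71, 38.2 and 63.9 CPM in Gcg-high cells. In each pool Gcg-high cells had the lowest mean of these 3 classes. The 2 cells with most Ldb3 reads held 92.1%, 54.9% and 55.1% of the reads of Pzp-positive cells. In Gcg-high cells the 2 such cells held 81.8%, 47.8% and 30.4%. With cells thinned to equal depth, a read was found in 13.3%, 45.5% and 39.3% of Pzp-positive cells. In Gcg-high cells these shares were 11.1%, 36.8% and 45%, so that SLX-9703 had the opposite order. Gip-high cells held no Ldb3 read in the shallow pools and 2 reads in the deep pool, at 0.200 CPM. In the deep pool the level over Cck-high cells was 531 times that over Gip-high cells (95% counting interval 147 to 4390, from 2105 and 2 reads), an interval that covers counting error only and takes reads as molecules, which they are not without molecular identifiers. The genes nearest to Ldb3 in the deep pool were Fxyd3 and Rnase4 (rho 0.61 for both, and between 0.27 and 0.38 in the shallow pools), and Ldb3 and Bace2 were the closest pair among the 10 genes there (rho 0.55, and 0.33 and 0.29 in the shallow pools).

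The second question was whether each gene followed the level of Gcg from cell to cell. Spearman's rho over all cells of a pool was computed for each pool, and the values describe cells that share a library preparation and a total of reads. The mean rho with Gcg over the 3 pools was 0.56 for Anpep (0.63, 0.54 and 0.51 in the 3 pools), 0.50 for Prune2, 0.46 for Bace2, 0.43 for Sphkap and 0.37 for Naaladl1. It was lower for Neto1 (0.28), Necab2 (0.26), Ldb3 (0.22), Trpa1 (0.19) and Rasal1 (0.099). The rho was above 0 in all 3 pools for 8 of 10 genes, against 39.8% of the 10926 genes, and below 0 in pool SLX-11179 for Trpa1 and Rasal1; since these genes were chosen for it, nothing is read from the count. Among the 12194 genes with a read in at least 25% of the cells of the deep pool, which Necab2 did not reach, the rho with Gcg ranked Prune2 at 5, Anpep at 12, Sphkap at 28 and Bace2 at 36, and Ldb3 at 729 and Rasal1 at 4968. With Gpr119, Prune2 ranked first, Sphkap at 3 and Neto1 at 6 in the deep pool, and with Pyy, Anpep ranked at 3. In SLX-11175 and SLX-11179, the ranks with Gpr119 were 84 and 44 for Prune2, 2 and 3 for Sphkap and 1549 and 471 for Neto1. With Gcg they were 123 and 79 for Prune2, 12 in both for Anpep, 397 and 51 for Sphkap and 174 and 38 for Bace2. Ranks there are among 4488 or 4489 and 5446 genes. The median rho with Gcg over the ranked genes was 0.18, 0.096 and 0.031 in the 3 pools.

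A rho over all cells also compares endocrine cells with the remaining cells, which had little of most of these genes. Among Gcg-high and Cck-high cells alone, which differ in Gcg but both have much Cck, the mean rho with Gcg was 0.32 for Anpep and 0.17 for Prune2, and these were the 2 of 10 genes above 0 in all 3 pools, which is near the 18.2% of the 10926 genes and from which nothing is read. It was 0.089 for Sphkap and 0.027 for Necab2. It was below 0 in all 3 pools for 5 of 10 genes, against 11.3% of the 10926 genes, and nothing is read from this count either. The means were -0.20 for Naaladl1, -0.23 for Trpa1, -0.23 for Ldb3, -0.29 for Neto1 and -0.30 for Bace2, and for Rasal1 the mean was -0.097 with 2 of 3 pools above 0. Within Gcg-high cells, Anpep (mean rho 0.36) and Prune2 (0.32) had a rho with Gcg above 0 in each pool, while their mean rho with Cck was -0.38 and -0.25. The share of reads that Gcg and Cck take up in a cell enters each of these values, and without hormone and mitochondrial genes in the total the rho with Gcg over all cells moved by more than its spread over pools for Sphkap (0.46) and Naaladl1 (0.39) and for none of the other 8.

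**Figure D2:**
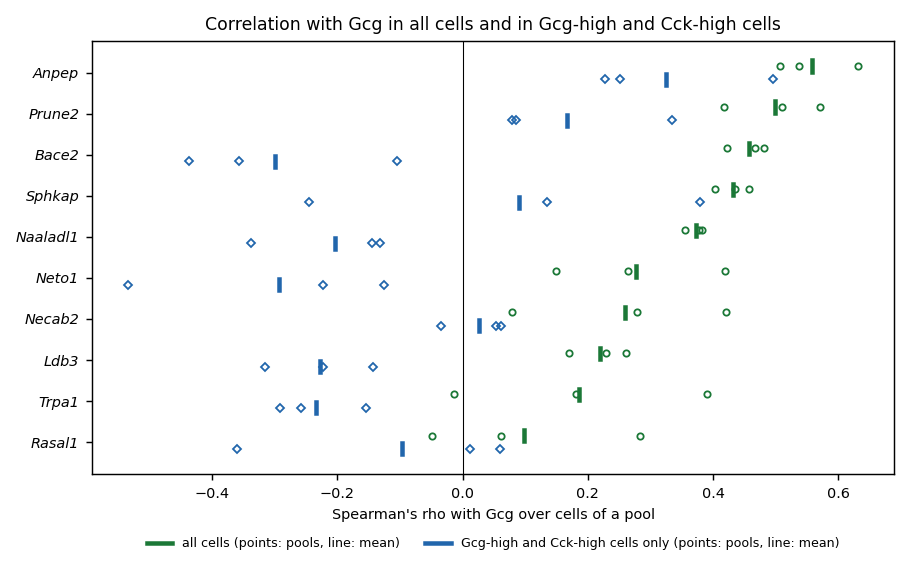
Spearman's rho of each listed gene with Gcg on the horizontal axis, over all cells (green circles) and over Gcg-high and Cck-high cells only (blue diamonds), with 1 point per pool and a thick line at the mean of 3 pools. In the set of Gcg-high and Cck-high cells, Anpep and Prune2 lie above 0 in all 3 pools, a share of genes near the 18.2% of all genes, and Naaladl1, Trpa1, Ldb3, Neto1 and Bace2 lie below 0 in all 3, as do 11.3% of all genes.

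**Figure D3:**
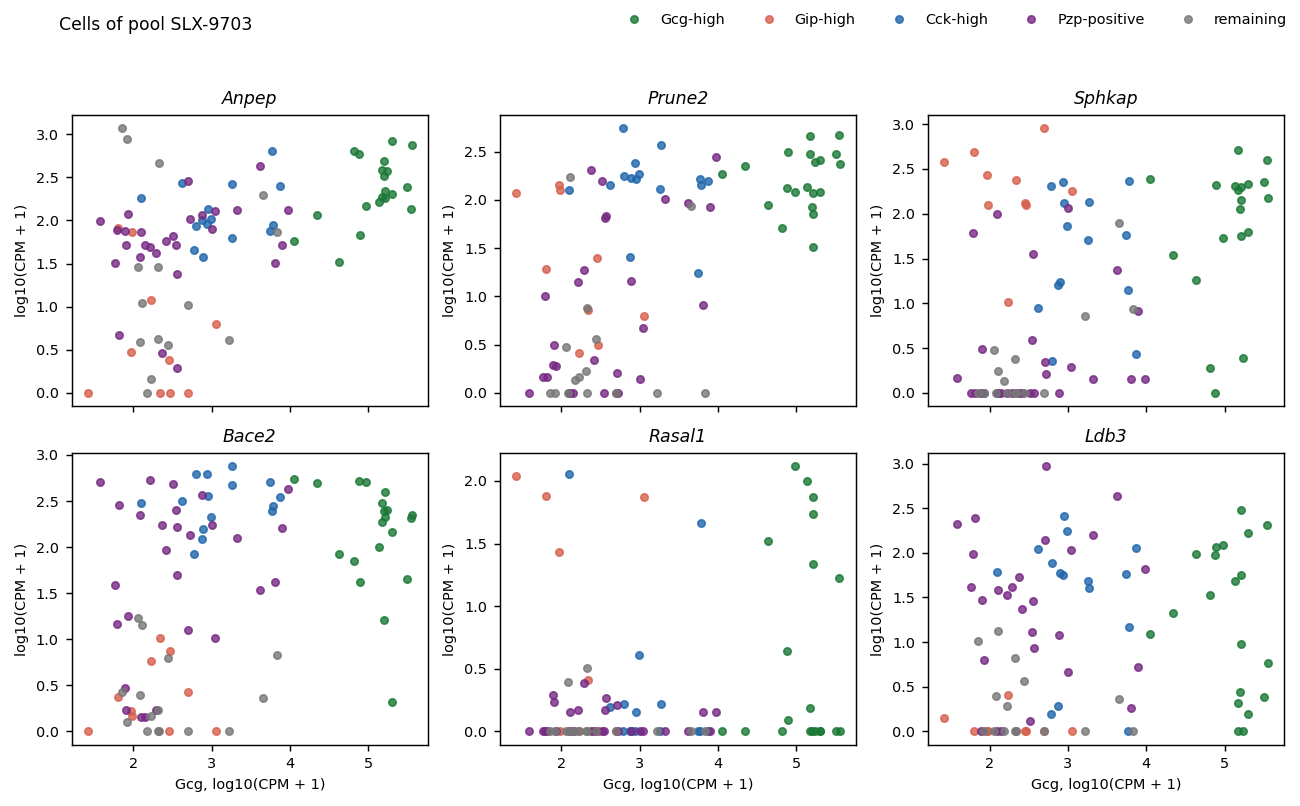
Level of 6 listed genes (vertical axis) against Gcg (horizontal axis) in the 88 cells of pool SLX-9703, both as log10(CPM + 1), with 1 point per cell coloured by class. Most Gcg-high cells have Anpep and Prune2 levels in the upper part of the range, Bace2 and Ldb3 are as high in many Cck-high and Pzp-positive cells at lower Gcg, and most cells have little or no Rasal1.

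The genes were also grouped by level of Gcg without the class limits. Pzp-positive cells were left out, and the steps were Gcg under 100, from 100, from 1000 and from 10000 CPM, the last being the Gcg-high class. Prune2 had a higher mean of 3 pools at each step, with 38.6, 56.4, 82.1 and 135 CPM, with an SD over pools of 54.6 CPM in the last step. So did Necab2 (0.842, 2.03, 6.11 and 9.66 CPM), Naaladl1 (74, 85.7, 171 and 172 CPM) and Neto1 (8.99, 35, 39.2 and 42.3 CPM), though not in each pool and with the last steps of the latter pair closer than their spread over pools, while Sphkap (95.8, 65.3, 88.3 and 130.1 CPM) and Rasal1 (21.7, 9.76, 5.50 and 27.4 CPM) were lower in the middle steps than in the first. Bace2 went from 5.91 through 112 to 240 CPM and was back at 162 CPM in the last step, and Trpa1 and Ldb3 were likewise highest at 1000 to 10000 CPM of Gcg (70.4 and 52.8 CPM) and lower above it (23 and 36.9 CPM). Cck over the same steps had 2095, 65050, 136241 and 129051 CPM. Anpep had 144, 80.6, 185 and 274 CPM, with an SD of 195 CPM in the lowest step. That step holds all 3 remaining cells with much of the enterocyte list given above.

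Detection was compared at equal depth, after each cell was thinned to 20000 reads. A read of Bace2 was then found in a mean of 93.7% of Cck-high, 64.5% of Gcg-high, 54.9% of Pzp-positive and 5.63% of remaining cells. Anpep was found in 85.7% of Gcg-high and 70.8% of Cck-high cells, but also in 26.4% of remaining cells. With all reads, 93% of Gcg-high, 89.2% of Cck-high and 45.5% of remaining cells had a read of Anpep, and 78.9%, 94.6% and 16.7% one of Bace2. After thinning, Rasal1 was found in 20%, 80% and 30% of Gip-high cells of the 3 pools, the 80% being 4 of 5 cells of SLX-11179. In Gcg-high cells these shares were 22.2%, 5.26% and 25%, so that the order of these classes differed between pools. Of the 10 genes, a thinned Cck-high cell had a read of a median of 6 and a Gcg-high cell of 5, whereas a Gip-high or Pzp-positive cell had a read of 2. With all reads these medians were 7 for Cck-high, 6 for Gcg-high, 3 for Gip-high and 4 for Pzp-positive cells. After thinning, no read of any of the 10 was found in 33 of 66 remaining cells, and in none of the 57 Gcg-high cells were all 10 without a read.

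**Figure D4:**
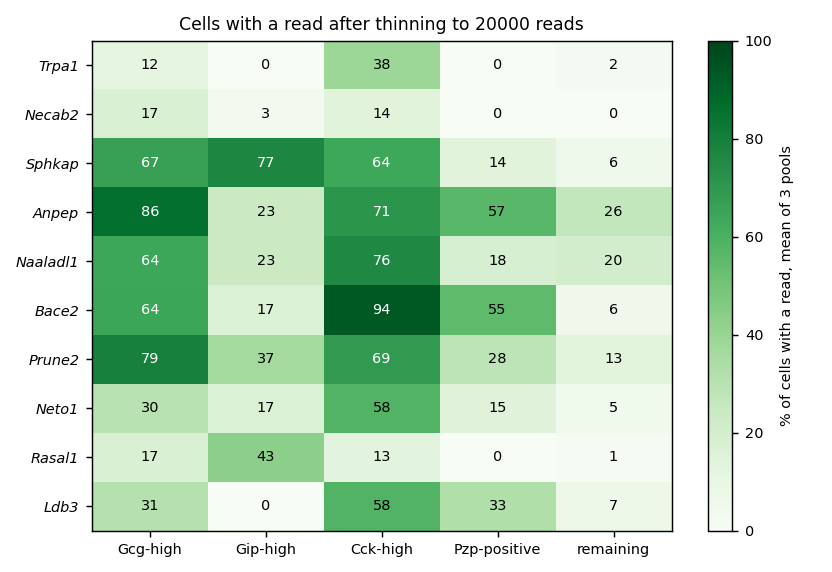
Percent of cells with at least 1 read of each listed gene (rows) in each class (columns) after thinning each cell to 20000 reads, as the mean of the 3 pools; darker green is a higher share. Bace2 reaches 93.7% in Cck-high cells, Sphkap is highest in Gip-high cells, the Rasal1 share of Gip-high cells rests on 4 of 5 cells of SLX-11179, and Trpa1 reaches 38.4% in Cck-high cells and Necab2 17.4% in Gcg-high cells.

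The third question was how the genes lie between cells with much Gip and cells with much Cck, which were all under the Gcg and Pzp limits. These classes still differed in the genes that chose the list, with a mean of 77.1, 49.2 and 287 CPM of Gcg in Gip-high and 2676, 2115 and 2303 CPM in Cck-high cells, and of 5.41, 42.3 and 1.44 against 5744, 1172 and 385 CPM of Pyy. The comparison is therefore not independent of the choice, and fitted values of the 10 genes are given as a description without p-values. By mean CPM over cells, Sphkap and Rasal1 were higher in Gip-high than in Cck-high cells in 2 of 3 pools. The other listed genes were lower in Gip-high cells in every pool. How often this holds over all genes was not counted, and nothing is read from how many listed genes do so. Counts were summed per pool and class, and edgeR's quasi-likelihood model was fitted to the sums with a term for the pool and Benjamini-Hochberg adjustment over 10926 genes, of which 179 passed (1.64%, 45 higher and 134 lower in Gip-high cells). Of the 10 listed genes 3 were among them, Ldb3, Bace2 and Anpep, and nothing is read from this count. None of these 3 was among the genes called without SLX-11175 or without SLX-9703, and Anpep was not without SLX-11179. At a minimum of 50000 reads, Anpep and Bace2 were not called. Anpep was also not called with RLE factors or at no more than 10% mitochondrial reads, and was called in 6 of 13 alternatives.

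Ldb3 had 0, 0 and 2 reads in the Gip-high sums and 42, 85 and 2105 reads in the Cck-high sums (fitted log2 fold change -8.90 ± 1.42, SE), and its fitted value is no bound because of the reads at 0. Bace2 had 0, 16 and 19 reads against 135, 318 and 9739 reads (-5.23 ± 1.03). Anpep had 2, 22 and 352 reads against 99, 243 and 4010 reads (-2.68 ± 0.64). A sum weighs cells by their reads, and fewer positive cells and less RNA per cell cannot be told apart in it.

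Sphkap had a fitted value of 1.36 ± 0.52 (SE) on the log2 scale in Gip-high against Cck-high cells and Rasal1 2.18 ± 0.75. The other fitted values were -2.24 ± 0.77 for Naaladl1, -7.55 ± 2.27 for Trpa1, -1.37 ± 0.62 for Prune2, -1.80 ± 1.02 for Neto1 and -2.08 ± 2.12 for Necab2. In SLX-11175 the Necab2 sum was higher in Gip-high cells (5 reads, 12.7 normalised CPM) than in Cck-high cells (2 reads, 2.98), opposite to its mean over cells. Trpa1 and Necab2 rest on sums with 0 reads in 2 of 3 Gip-high sums, and their fitted values depend on this.

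**Figure D5:**
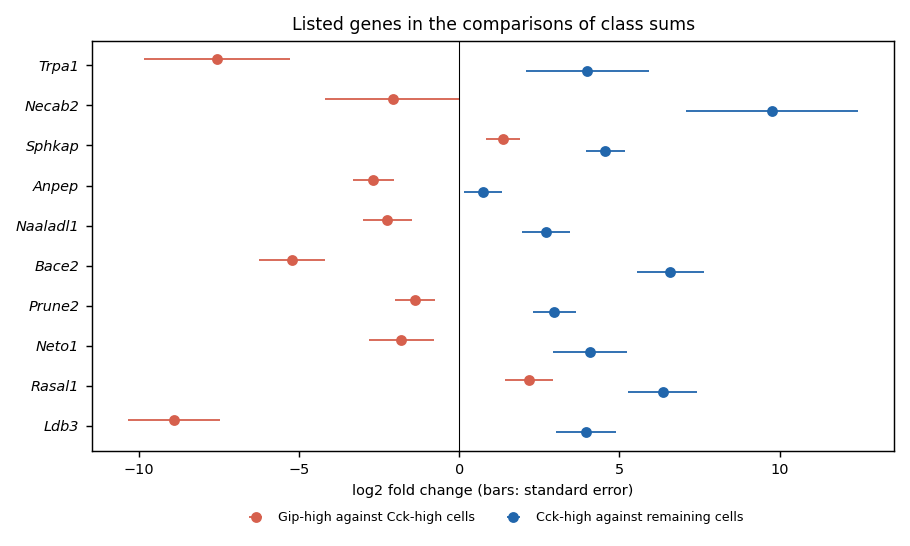
Fitted log2 fold change of each listed gene (horizontal axis, bars are standard errors) for Gip-high against Cck-high cells (red) and Cck-high against remaining cells (blue), from edgeR on sums over 3 pools. Red points lie below 0 except for Sphkap (1.36) and Rasal1 (2.18), and blue points lie above 0, a direction that the choice of the genes bears on.

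The fourth question was how the genes lie between Cck-high cells and remaining cells, which were both under the Gcg, Gip and Pzp limits. Remaining cells had 144, 225 and 1011 CPM of Gcg, 29.1, 3.35 and 3.90 CPM of Pyy and 2.42, 0 and 0.182 CPM of Gpr119, the last against 62.8, 93.5 and 137 CPM in Cck-high cells. A rho over all cells thus already used this difference, and the direction of the fitted values is given as a description without p-values. In this comparison 367 of 10926 genes passed (3.36%, 205 higher and 162 lower), among them 5 of 10 listed genes, Sphkap, Bace2, Rasal1, Prune2 and Ldb3, and nothing is read from this count. Without SLX-11175, Bace2, Prune2 and Ldb3 were not among the genes called, without SLX-11179 Rasal1 was not, and without SLX-9703 Prune2, Rasal1 and Ldb3 were not. At no more than 10% mitochondrial reads Prune2 was not called, and by limma Rasal1 was not. Sphkap had 85, 103 and 2091 reads in Cck-high sums and 4, 13 and 71 in sums of remaining cells (fitted log2 fold change 4.55 ± 0.61, SE). Bace2 had a fitted value of 6.59 ± 1.04, Rasal1 of 6.35 ± 1.08, Prune2 of 2.97 ± 0.66 and Ldb3 of 3.95 ± 0.94.

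Naaladl1 had a fitted value of 2.70, Necab2 of 9.76 and Neto1 of 4.08. The Necab2 value is fitted against 0 reads in remaining cells, and in the deep pool its level in Cck-high cells was at least 55-fold that in remaining cells against a floor of 3 reads. Trpa1 had 3.99 ± 1.92 and, without pool SLX-11179, which holds the remaining cell with 67 reads, 8.40. Anpep had 0.74 ± 0.60, against the wide range of remaining cells given above, and ranged from 0.29 to 3.53 over 13 alternatives. It was among the genes called by limma and in the fit without the 5 cells of 10000 CPM or more on the enterocyte list. Naaladl1 was also called in the fit without those cells, and nothing is read from these calls.

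Gcg-high and Pzp-positive cells were then split within each pool, at the median of Cck and of Tph1, the enzyme of serotonin synthesis. The Gcg-high cells with more Cck had less Gcg, with a mean of 64203, 70506 and 102470 CPM against 130305, 152926 and 204680 CPM in those with less Cck, so that this split is not independent of the choice of the genes and their values in it are a description. Bace2 had 51.7, 49.3 and 126 normalised CPM in the cells with less Cck and 297, 154 and 360 in those with more (fitted log2 fold change 1.83 ± 0.40, SE). Naaladl1 had 31.2, 66.2 and 164 normalised CPM against 297, 253 and 274 (1.86 ± 0.50). Neto1 had 25.2, 24.6 and 36.1 against 94.3, 38.6 and 116 (1.39 ± 0.54) and Ldb3 4.81, 13.9 and 54.6 against 12.7, 55.2 and 82.7 (1.21 ± 0.68). For these 4 genes the value was higher with more Cck and less Gcg in each pool. Trpa1 had a fitted value of 0.30 ± 1.10. Rasal1 had 3.81 ± 1.32 and, without pool SLX-11175, 5.62, with 106 of its reads in 1 cell of pool SLX-11179. Anpep (-0.17), Prune2 (-0.37) and Sphkap (0.042) had fitted values with standard errors of 0.33, 0.43 and 0.45. Of all genes 2 of 6549 passed by edgeR (0.0305%), Sct, which encodes secretin, and Agr2, a protein disulphide isomerase, both higher with more Cck and named after their values were seen. None of the 9 listed genes in this fit was among them, while 238 of all genes had an unadjusted p under 0.05. DESeq2 called 29 genes (0.443%), 3 of them listed (Bace2, Naaladl1 and Rasal1), in sets of cells that differ in the Gcg used to choose them. Nothing is read from these counts.

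Among Pzp-positive cells 0 of 6744 genes passed by edgeR with more against less Tph1 (0%, with 184 at an unadjusted p under 0.05, and 3 genes by DESeq2 and 1 by limma). Gcg, Pyy and Pzp did not differ between these sets of cells in the same direction in all 3 pools, and Gpr119 had a lower mean with more Tph1 in each. The Gpr119 means rest on only 6, 3 and 7 reads, from 2, 1 and 5 Pzp-positive cells of the 3 pools. The 6 listed genes in this fit had fitted values between -0.62 for Prune2 and 1.58 ± 0.60 (SE) for Ldb3. Ldb3 had 19.3, 64.7 and 25.6 normalised CPM with less Tph1 and 67.7, 65.6 and 175 with more, so that SLX-11179 showed almost no difference. The cells of SLX-9703 with 926 and 430 CPM of Ldb3 were among those with more Tph1. Trpa1, Necab2, Sphkap and Rasal1 did not pass the filter on low counts in Pzp-positive cells.

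Relatives of the 10 genes by family were looked at next, from lists of 79 other genes. Of these 45 were in the fit of Gip-high against Cck-high cells, and none passed there by edgeR, nor in the fits within Gcg-high and Pzp-positive cells. Against remaining cells, the peptidase gene Xpnpep2, which encodes an aminopeptidase, was higher in Cck-high cells (3.5 ± 0.73, SE, edgeR adjusted p = 0.0113), and Enpep (aminopeptidase A) was lower (-8.49 ± 1.52, adjusted p = 0.00403). Among relatives of Sphkap, the regulatory subunit gene of protein kinase A, Prkar1a, had a mean rho with Gcg of 0.40 over all cells and the catalytic subunit gene Prkacb one of 0.30, against a median of 0.11 over the 12 of 14 genes of that list that had a rho in every pool. Dpp4, the peptidase that inactivates GLP-1, had 0.38 and Enpep -0.22, with a median of 0.011 over 8 of 11 peptidases, counted likewise. Bace1 had 0.29, with a median of 0.092 over 9 secretase genes, and Rasa4 0.30, with a median of 0.061 over 9 Ras GTPase-activating proteins. These named genes are among the highest or lowest of their lists. The median was 0.015 over 10 of 18 relatives of Trpa1, 0.0088 over 5 of 6 of Neto1 and 0.11 over 4 of 6 of Ldb3.

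Among themselves, the 45 pairs of the 10 genes had a median rho of 0.25, 0.21 and 0.32 in the 3 pools, values that the choice of genes that follow the same genes bears on and from which nothing is read. The genes nearest to Anpep in the deep pool were Mttp, the microsomal triglyceride transfer protein of lipoprotein assembly, and Calml4 (rho 0.60 for both). In SLX-11175 and SLX-11179 the rho with Anpep was 0.083 and 0.43 for Mttp and 0.49 and 0.33 for Calml4. Chgb was among the 2 nearest to Trpa1, Necab2, Naaladl1, Prune2 and Neto1 in the deep pool, and its rho in the shallow pools was 0.35 and 0.17 with Trpa1, 0.23 and 0.31 with Necab2, 0.33 and 0.39 with Neto1, 0.55 and 0.54 with Prune2 and 0.59 and 0.68 with Naaladl1. With Pyy, Anpep had a mean rho of 0.45 over all cells and 0.44 among Gcg-high and Cck-high cells. With Gpr119, Sphkap had 0.55 and 0.36 and Prune2 0.49 and 0.26 in these sets. With Pzp over all cells, Sphkap had -0.33 and Naaladl1 -0.25, while Bace2 had 0.069 and Ldb3 0.15, both above 0 in all 3 pools.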

How the data were processed

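Single cells of 3 pools of 96 were measured by RNA-seq. The authors deposited raw counts per gene and cell, made with GSNAP on mm10 and counted with HTSeq, without strand, normalization or molecular identifiers. Lines that name no gene held 77.6% of the counts and were left out, as were spike-ins (5.34%). 4 columns matched no sample and were not used. No 2 cells had identical counts.

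Cells were classed and CPM computed as the report states. Symbols came from GENCODE M21 (45143 genes matched) and promoters from the RefSeq table of GRCm38.p6 (5 of 10 genes matched). Spearman's rho was taken on CPM over cells of a pool. Counts were summed per pool and class, with at least 3 cells per sum, and tested with edgeR 4.0.16 (quasi-likelihood, TMM factors, default filter on low counts, pool as a block, R 4.3.3) with Benjamini-Hochberg adjustment at 0.05. In a fit of the sums of all 5 classes, Gip-high was compared with Cck-high and Cck-high with remaining cells. In fits of their own, Gcg-high and Pzp-positive cells were split at the pool median of Cck or Tph1. Since the classes of the first fit and the sets of Gcg-high cells split by Cck differ in Gcg, no p-values are given for the 10 genes. The code was tested on simulated data. Alternatives were DESeq2 1.42.0, limma 3.58.1 on mean log2(CPM + 1), RLE factors, no filter, other limits, no block and each pool left out. For rho, the sets of Gcg-high and Cck-high cells and of all but remaining cells, and the fits without enterocyte-rich cells, were added after the data were seen. No doublet caller was run. Sums of the same pool deviated together (correlation 0.0253 to 0.395 over 30 pairs, median 0.11), against a median of -0.11 over 60 pairs of different pools. Class means over the 3 pools were subtracted first, so that positive values within pools bring negative values between pools. The second median is thus no separate evidence. The labels do not say that a pool is an animal, so p-values measure only the spread between 3 pools. Folds against 0 reads use a floor of 3 reads per sum, and intervals are at 95%. Genes named are the 10, the genes that define classes, the 2 genes nearest to each of the 10, and relatives by family, of which 1 is not reported here. The members and lists were chosen with earlier results of these data known.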

Additional observations from a re-analysis of the deposited data

How the results depend on the processing

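Of Gip-high against Cck-high cells, 179 genes passed, against 639 by DESeq2, 301 without the filter, 1422 by limma, 73 at a minimum of 50000 reads, 99 at no more than 10% mitochondrial reads, 92 with hormone limits of 3000 CPM and 21 to 33 with a pool left out. Of Cck-high against remaining cells, 367 passed, against 1059 by DESeq2, 859 without the filter, 1834 by limma (1769 of them higher, against 205 of 367), 177 at 10% mitochondrial reads and 113 to 173 with a pool left out. Within Gcg-high cells 2 passed, against 29 by DESeq2, 19 without the filter, 5 by limma, 1 without the replicate block, 1 at 10% mitochondrial reads, 1 with hormone limits of 3000 CPM, 1 without enterocyte-rich cells and 2 to 29 with a pool left out. Within Pzp-positive cells 0 passed, against 3 by DESeq2, 7 without the filter, 1 by limma and 0 to 5 with a pool left out. Without the replicate block, the first 2 comparisons gave 136 and 306 genes, and the calls of Anpep in the first and Ldb3 in the second were lost. A fit with a pool left out has 2 sums per class. The cause of these differences was not tested.

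In the first 2 comparisons each of the 10 genes kept its direction in all 13 alternatives, a direction that the choice of the genes bears on. Within Gcg-high cells, with a pool left out, Trpa1 (0.30) ranged from -0.98 without SLX-9703 to 0.99, and Sphkap (0.042) from -0.43 without SLX-11175 to 0.44. Within Pzp-positive cells, Anpep went from 0.28 to -0.85 by limma and -0.77 with a Pzp limit of 500 CPM, and ranged from -0.035 (without SLX-9703) to 0.69 with a pool left out. Naaladl1 went from 0.51 to -0.037 by limma and ranged from -0.26 (without SLX-11179) to 1.22, and Bace2 went from 0.24 to -0.63 and ranged from -0.20 (without SLX-11179) to 0.62. Neto1 went from -0.23 to 1.00 without the replicate block and 0.26 by limma, and ranged from -2.11 (without SLX-11175) to 1.57 (without SLX-11179), with 0.39 without SLX-9703. The mean rho with Gcg moved beyond its SD over pools in 25 of 90 alternatives, 10 of them the set of Gcg-high and Cck-high cells, and the mean CPM in Gcg-high cells in 8 of 60, all without hormone and mitochondrial genes in the total (Anpep 409, Sphkap 196). In the shallow pools 1 read is 14.1 to 19 CPM at median depth, so Necab2, Rasal1 and Trpa1 rest on few reads there.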
